A study of Mus musculus with 24 samples.

Results

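Copper is built into a small set of enzymes that act mostly outside the cell or in the secretory pathway. Expression of 10 genes for such enzymes was followed in mouse myoblasts: the lysyl oxidases *Lox*, *Loxl1*, *Loxl2*, *Loxl3* and *Loxl4*, the superoxide dismutases *Sod1* and *Sod3*, the peptide-amidating enzyme *Pam* and the ferroxidases *Heph* and *Cp*. The genes were chosen by name as copper-dependent enzymes and not by a measured value, although earlier results of these data were known. They are 10 of the 55291 gene symbols in the count table. RNA was sequenced from C2C12 cells, an immortalized mouse myoblast line, that stably expressed a scrambled control shRNA (scr) or an shRNA against *Baf180* (gene *Pbrm1*), *Baf250a* (gene *Arid1a*) or *Brd9*, which are subunits of the PBAF, BAF and ncBAF forms of the SWI/SNF chromatin remodeler. Each line was a population made by lentiviral transduction and puromycin selection, scr included, and was grown for 48 h without added metal (NT), with 100 µM CuSO4 or with 50 µM ZnSO4. There were 2 replicates in each of the 12 conditions, 24 libraries in all. The sample labels name primary myoblasts and a lipofectamine-mediated knockdown where the study's methods describe C2C12 cells and lentivirus, and the methods are followed here.

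Lysyl oxidases are secreted enzymes that oxidize lysine side chains of collagens and elastin, the first step of the cross-links that stiffen the extracellular matrix, and they use a bound copper ion and a quinone cofactor formed from their own residues. Sod1 turns superoxide into hydrogen peroxide in the cytosol and Sod3 does so outside the cell, both with copper at the active site. Pam amidates the ends of secreted peptides. Cp and Heph are multicopper oxidases that oxidize iron as it leaves cells, Cp mostly as a plasma and surface protein and Heph as a membrane protein. Secreted copper enzymes receive their copper from the pump Atp7a in the Golgi, whereas Sod1 receives it from the chaperone Ccs.

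The copper site of the lysyl oxidases lies in a histidine-rich stretch that is the most recognizable part of the family. The coding sequence of this stretch is shown for the 4 lysyl oxidase-like genes, because it is the part they share while their expression below goes in different directions; capitals mark the histidine codons. It was found in the principal GENCODE M21 transcript of each gene by a pattern of fixed bases. These were bases of its tryptophan, histidine, cysteine and tyrosine codons at their spacing. The pattern occurred once in each transcript, and the stretch crosses an exon junction in all 4 (coordinates are GRCm38 and include the intron).
Loxl1 (chr9:58293720-58294381, minus strand, exons 3 and 4 of 7): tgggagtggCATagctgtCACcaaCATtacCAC
Loxl2 (chr14:69682316-69689037, plus strand, exons 10 and 11 of 14): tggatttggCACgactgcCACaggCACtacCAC
Loxl3 (chr6:83049995-83050125, plus strand, exons 10 and 11 of 14): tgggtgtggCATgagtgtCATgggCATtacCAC
Loxl4 (chr19:42598807-42599899, minus strand, exons 11 and 12 of 15): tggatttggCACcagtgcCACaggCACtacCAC
Each holds 4 histidine codons, and 20 of the 33 bases are the same in all 4 genes. The search pattern itself fixed most of those shared bases and the places of the histidine codons. These 2 counts therefore describe the pattern more than a likeness found between the genes. *Loxl2* and *Loxl4* differ least, with 31 of 33 bases the same, and *Loxl1* and *Loxl4* differ most, with 21.

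The libraries held between 495778 and 75179394 counts, with a median of 22158430, and the lowest was replicate 2 of *Baf250a* KD with Zn. The next lowest library had 12719173 counts, so values that rest on that replicate are given with and without it. The targeted transcript was lower in each untreated KD than in untreated scr cells, by log2 fold changes of -0.76 for *Pbrm1*, -1.53 for *Arid1a* and -0.76 for *Brd9* (edgeR's quasi-likelihood test, adjusted p at most 0.0060). The metallothionein gene *Mt2*, which zinc induces, rose with Zn in all 4 lines, by 1.10 to 3.40 on the log2 scale. All 8 myoblast markers reached 1 CPM (counts scaled to library size) in some library of every line, and their summed level was 3451 to 5038 CPM in scr libraries and 1708 to 2921 CPM in KD libraries. Not all went down: 5, 6 and 5 of the 8 were lower and 2, 2 and 2 higher in the untreated *Baf180*, *Baf250a* and *Brd9* KDs, and *Vcam1* was at 11.9 to 16.9 CPM in scr and 43.7 to 137 CPM in KD libraries. Of 8 myotube markers, 4 of 8 tested were higher in untreated *Baf180* KD, 2 of 7 higher and 3 lower in *Baf250a* KD and 6 of 7 lower in *Brd9* KD. Beside both lists, 41.0%, 57.8% and 29.2% of all genes passed in these comparisons in either direction. The part of these markers in the results below was not tested.

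The 10 genes lie on 10 different chromosomes. Among those the results turn on, *Sod3* spans chr5:52363791-52371418, *Loxl3* chr6:83034173-83052562 and *Loxl2* chr14:69609068-69695834, all on the plus strand of GRCm38. Of the 10 genes, 9 had enough reads to be tested. *Heph* had between 0 and 14 counts in a library and 63 counts over all 24, with none in 7 libraries, and it was too low for any comparison. Per transcript length, *Sod1* was the most abundant of the 10 in untreated scr cells at 329 ± 44.3 FPKM (CPM per kilobase of transcript; SD, n = 2). *Pam* at 54.3 ± 2.35 and *Loxl1* at 49.4 ± 3.72 FPKM followed and did not differ beyond their spread. *Lox* was at 31.6 ± 3.79 FPKM. *Loxl2* (10.5 ± 1.40) and *Loxl3* (10.5 ± 0.43) were at the same FPKM within their spread, as were *Loxl4* (5.52 ± 0.053) and *Cp* (5.47 ± 0.60), and *Sod3* was at 4.32 ± 0.20. In untreated *Baf250a* KD cells the order was another one. *Lox* was then the highest at 248 ± 5.62 FPKM, above *Sod1* at 174 ± 16.7, and *Loxl2* was the lowest of the 9 at 2.89 ± 0.13. *Sod3* stood at 24.9 ± 0.0025 FPKM in these cells.

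**Figure D1:**
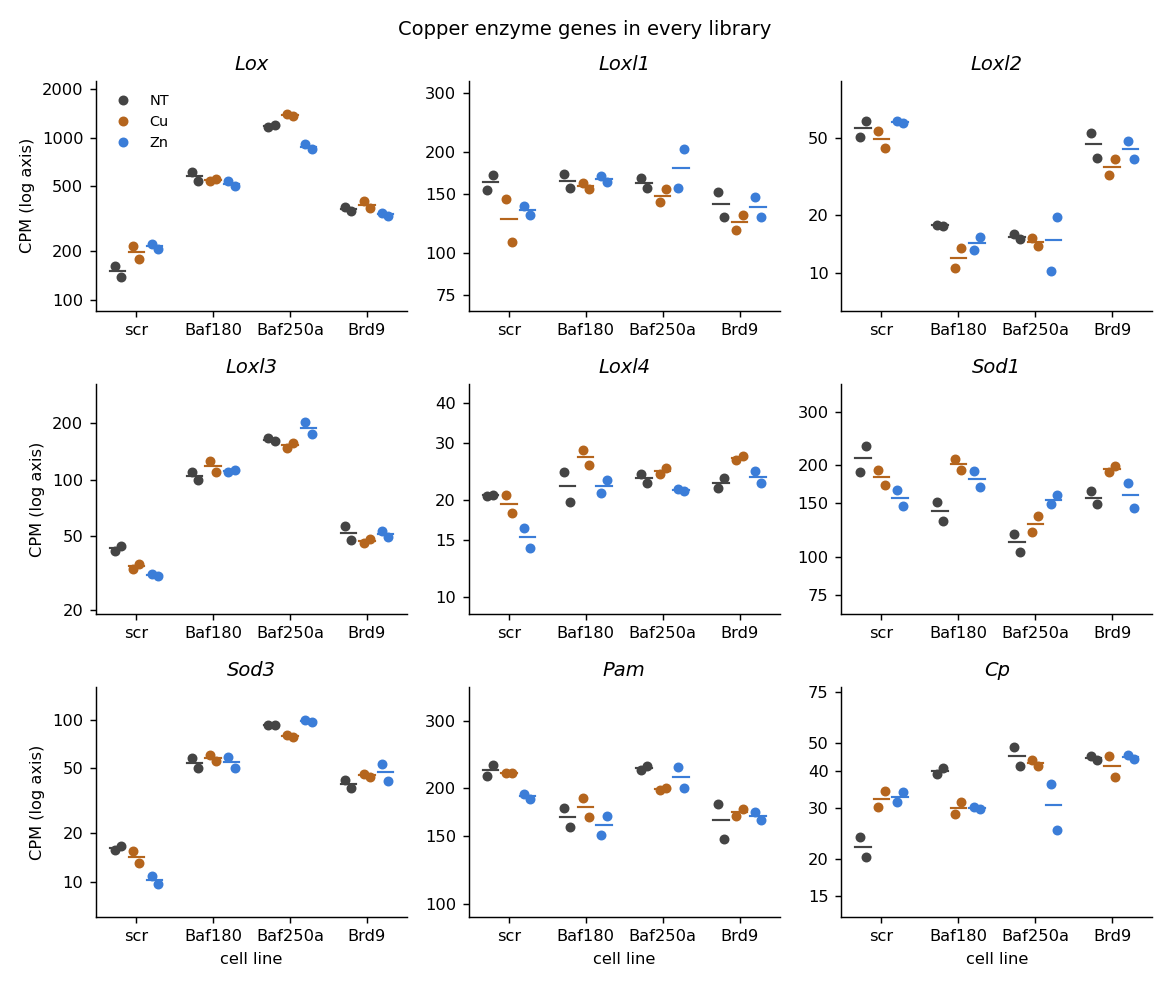
Expression of the 9 copper enzyme genes that were tested, in CPM on log axes that differ between panels. Points are single libraries (grey, NT; brown, Cu; blue, Zn), short bars are means of 2 replicates, and the 4 cell lines are along each panel. *Lox*, *Loxl3* and *Sod3* were lowest in scr and highest in *Baf250a* KD libraries, and *Loxl2* was lowest in the *Baf180* and *Baf250a* KD libraries.

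The first comparison asked how these genes differed between each KD and scr control without added metal. The methods do not say whether the 2 replicates of a line came from separate transductions. Effects of the KD and other differences between the populations therefore cannot be told apart. *Lox* and *Sod3* were higher in all 3 KDs than in scr control, *Loxl3* was higher and *Loxl2* lower in *Baf180* and *Baf250a* KD cells, and *Sod1* was lower and *Cp* higher in all 3. *Lox*, the founding member of the family, was at 163 and 137 CPM in the 2 untreated scr libraries, 614 and 543 in *Baf180* KD, 1159 and 1197 in *Baf250a* KD and 372 and 350 in *Brd9* KD. No KD library overlapped the scr libraries, and the 3 KDs did not overlap each other. The fold changes against scr were 3.90 in *Baf180* KD (log2 fold change 1.96, SE 0.12, edgeR adjusted p = 2.58e-07), 7.86 in *Baf250a* KD (2.97, SE 0.12, adjusted p = 3.91e-10) and 2.44 in *Brd9* KD (1.28, SE 0.11, adjusted p = 2.25e-04). These comparisons use the same 2 untreated scr libraries. Those in Cu below share the 2 scr libraries with Cu, and those in Zn the 2 scr libraries with Zn.

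*Loxl3*, a lysyl oxidase best known from palate and cartilage development, was at 41.7 and 44.2 CPM in untreated scr cells and at 110 and 99.3 in *Baf180* KD. In *Baf250a* KD it was at 167 and 160 CPM, and in *Brd9* KD at 56.8 and 47.4. It rose 2.46-fold in *Baf180* KD (log2 fold change 1.30, SE 0.11, edgeR adjusted p = 3.45e-06) and 3.81-fold in *Baf250a* KD (1.93, SE 0.11, adjusted p = 1.19e-08). In *Brd9* KD both libraries lay above both scr libraries, but the difference did not pass the test (adjusted p = 0.087).

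*Loxl2*, which cross-links collagen IV of basement membranes, went the other way. It was at 50.8 and 61.3 CPM in scr, 17.6 and 17.6 in *Baf180* KD, 15.9 and 14.9 in *Baf250a* KD and 53.2 and 39.2 in *Brd9* KD. The *Baf180* and *Baf250a* KD libraries were far below scr, and those of *Brd9* KD overlapped with it. The log2 fold changes were -1.65 (SE 0.13, edgeR adjusted p = 2.08e-06) in *Baf180* KD and -1.86 (SE 0.13, adjusted p = 8.98e-08) in *Baf250a* KD, and the test was not passed in *Brd9* KD (adjusted p = 0.22). Thus *Loxl2* and *Loxl4*, which share all but a few bases of the copper-site sequence shown above, did not move together: *Loxl4* was at 20.5 and 20.8 CPM in scr and between 19.7 and 24.5 CPM in the 6 untreated KD libraries, with no test passed. *Loxl1*, which acts on elastin, was at 154 and 171 CPM in scr and between 129 and 172 CPM in those 6 libraries, again with no test passed.

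The make-up of the family shifted with these changes. *Lox* supplied a median of 46.1% of all lysyl oxidase CPM in the 6 scr libraries (31.6% to 47.1%), 63.8% in *Baf180* KD, 76.3% in *Baf250a* KD (66.9% to 80.9%) and 58.8% in *Brd9* KD. The share of *Loxl2* was a median of 12.4% in scr, 1.72% in *Baf180* KD, 0.922% in *Baf250a* KD and 6.76% in *Brd9* KD. The sum of the 5 genes was 384 to 468 CPM in scr libraries, 814 to 938 in *Baf180* KD, 1270 to 1720 in *Baf250a* KD and 569 to 656 in *Brd9* KD. The sum therefore did not overlap between any of the 4 lines, although it is not weighted for transcript length.

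The dismutases moved in opposite directions. *Sod3*, the extracellular enzyme, was at 15.6 and 16.7 CPM in untreated scr cells, 58.3 and 50.1 in *Baf180* KD, 93.0 and 93.0 in *Baf250a* KD and 42.1 and 38.1 in *Brd9* KD. Every KD library was above scr, by 3.39-fold in *Baf180* KD (log2 fold change 1.76, SE 0.13, edgeR adjusted p = 8.83e-07), 5.75-fold in *Baf250a* KD (2.52, SE 0.11, adjusted p = 1.56e-09) and 2.51-fold in *Brd9* KD (1.33, SE 0.12, adjusted p = 2.71e-04). *Sod1*, the cytosolic enzyme, was at 191 and 231 CPM in scr. It was at 151 and 131 CPM in *Baf180* KD, 119 and 104 in *Baf250a* KD and 164 and 149 in *Brd9* KD, so that every untreated KD library lay below both scr libraries. The log2 fold changes of *Sod1* were -0.57 (SE 0.12, adjusted p = 0.0030) in *Baf180* KD, -0.92 (SE 0.12, adjusted p = 3.13e-05) in *Baf250a* KD and -0.41 (SE 0.11, adjusted p = 0.027) in *Brd9* KD. After a correction for GC content and transcript length the *Sod1* values were -0.23, -0.47 and -0.07, and the last did not pass the test. The call in *Baf180* KD was lost without its untreated replicate 2, and that in *Brd9* KD without replicate 2 of untreated scr or either untreated *Brd9* KD replicate.

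*Cp* was at 23.8 and 20.3 CPM in scr, 39.1 and 41.1 in *Baf180* KD, 48.6 and 41.8 in *Baf250a* KD and 45.3 and 43.6 in *Brd9* KD. All 6 KD libraries were higher than scr, with log2 fold changes of 0.88 (SE 0.13, edgeR adjusted p = 2.73e-04), 1.04 (SE 0.13, adjusted p = 2.06e-05) and 1.03 (SE 0.13, adjusted p = 0.00107), respectively. *Pam* was at 216 and 229 CPM in scr, 178 and 159 in *Baf180* KD, 223 and 228 in *Baf250a* KD and 182 and 148 in *Brd9* KD. It was lower in *Baf180* KD (-0.39, SE 0.10, adjusted p = 0.011) and *Brd9* KD (-0.41, SE 0.11, adjusted p = 0.024), and both *Baf250a* KD libraries lay between the 2 scr libraries (adjusted p = 0.89). Each of the *Pam* calls was lost without replicate 2 of that untreated KD. With 1 library left out the values ran from -0.49 to -0.35 in *Baf180* KD and from -0.57 to -0.31 in *Brd9* KD.

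Counted over the family, 7 of 9 genes passed the test in untreated *Baf180* KD cells (4 higher, 3 lower), 6 of 9 in *Baf250a* KD (4 higher, 2 lower) and 5 of 9 in *Brd9* KD (3 higher, 2 lower). Of all genes tested, 41.0%, 57.8% and 29.2% passed in the same comparisons, so calls were common throughout and 9 genes are too few to set the family apart. The median log2 fold change of the 9 genes was 0.11, 0.18 and 0.15, against 0.028, 0.0030 and 0.0096 for all genes.

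**Figure D2:**
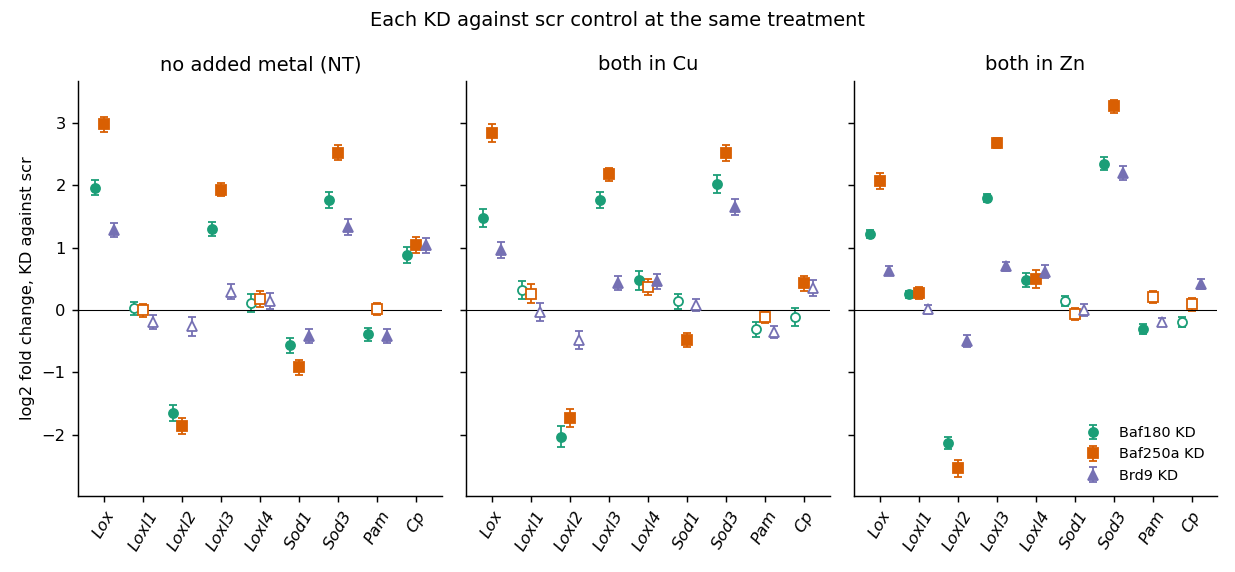
Log2 fold change of each gene in *Baf180* (circles), *Baf250a* (squares) and *Brd9* (triangles) KD cells against scr control at the same treatment, with the SE of the edgeR fit as error bars. Filled symbols have an adjusted p under 0.05. *Lox* and *Sod3* were filled and above 0 in all 9 comparisons, and *Loxl2* was at -1.65 or below in *Baf180* and *Baf250a* KD.

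With Cu in both lines, the difference between KD and scr was retained for *Lox*, *Sod3*, *Loxl3* and *Loxl2*. *Lox* was at 214 and 178 CPM in scr with Cu, 539 and 554 in *Baf180* KD, 1395 and 1350 in *Baf250a* KD and 404 and 367 in *Brd9* KD, with log2 fold changes of 1.47, 2.83 and 0.96 (SE 0.14, 0.14 and 0.12; largest edgeR adjusted p = 0.0030). *Sod3* was 2.02, 2.51 and 1.66 higher on the log2 scale in the 3 KDs (largest adjusted p = 4.51e-04). *Loxl3* was 1.76, 2.17 and 0.43 higher, the last with an adjusted p of 0.046. With GC correction that value was 0.41 and did not pass (adjusted p = 0.066), nor did it with the replicate block (0.43, adjusted p = 0.077) or without either *Brd9* KD replicate in Cu. *Loxl2* was lower in *Baf180* KD (-2.03) and *Baf250a* KD (-1.73, largest adjusted p = 7.74e-05), and did not pass in *Brd9* KD (-0.48, adjusted p = 0.078), where DESeq2, the fit of all 24 libraries (adjusted p = 0.040) and the GC correction (adjusted p = 0.035) did call it.

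*Sod1* and *Cp* behaved otherwise in Cu. *Sod1* was at 193 and 172 CPM in scr with Cu and at 210 and 194 in *Baf180* KD and 191 and 199 in *Brd9* KD, with no test passed. It was lower in *Baf250a* KD, at 121 and 136 CPM (log2 fold change -0.48, SE 0.11, edgeR adjusted p = 0.012), but at -0.19 with GC correction (adjusted p = 0.069), and the call was lost without either *Baf250a* KD replicate in Cu. *Cp* was at 30.2 and 34.2 CPM in scr with Cu, and was higher in *Baf250a* KD, at 43.7 and 41.9 CPM (0.43, SE 0.12, adjusted p = 0.022), a call lost without either of those replicates. In *Brd9* KD *Cp* was at 45.1 and 38.3 CPM, also above both scr libraries, which did not pass (0.35, adjusted p = 0.14) but did in the fit of all 24 libraries (adjusted p = 0.022) and with GC correction (adjusted p = 0.044). *Loxl4* was higher in *Baf180* KD (28.6 and 25.7 CPM, log2 fold change 0.47, adjusted p = 0.036) and *Brd9* KD (26.6 and 27.4 CPM, 0.46, adjusted p = 0.049) than in scr with Cu (20.7 and 18.2 CPM), and DESeq2 called neither. In Cu, 5, 6 and 4 of 9 genes passed in *Baf180*, *Baf250a* and *Brd9* KD, beside 24.9%, 41.2% and 12.2% of all genes.

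With Zn in both lines, *Lox* was at 220 and 207 CPM in scr, 537 and 501 in *Baf180* KD, 915 and 847 in *Baf250a* KD and 345 and 330 in *Brd9* KD. The log2 fold changes were 1.22, 2.06 and 0.63 (SE 0.06, 0.13 and 0.07), all past the test. *Sod3* was at 10.9 and 9.73 CPM in scr with Zn and at 58.6 and 50.2 in *Baf180* KD, 99.0 and 97.2 in *Baf250a* KD and 53.0 and 42.0 in *Brd9* KD. Its log2 fold changes were 2.35, 3.27 and 2.19 (SE 0.10, 0.10 and 0.12). *Loxl3* was 1.79, 2.67 and 0.70 higher and *Loxl2* -2.13, -2.54 and -0.50 on the same scale, all past the test, so that *Loxl2* passed in *Brd9* KD in Zn as well (39.0 and 48.2 CPM against 59.9 and 61.4 in scr).

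The *Baf250a* KD values in Zn include the shallow library, in which *Loxl2* rested on 10 counts and *Loxl4* on 11. Without it the log2 fold changes against scr were 2.06 for *Lox*, 3.25 for *Sod3*, 2.68 for *Loxl3* and -2.60 for *Loxl2*. With all 24 libraries in one fit, which shares the spread among conditions, they were 2.05 (adjusted p = 1.80e-12), 3.26 (3.69e-14), 2.65 (3.72e-14) and -2.48 (1.18e-08), respectively. The smaller differences of *Loxl4* (0.48, 0.50 and 0.61 higher in Zn in *Baf180*, *Baf250a* and *Brd9* KD) and *Loxl1* (0.25 and 0.27 higher in Zn in *Baf180* and *Baf250a* KD) were less firm: *Loxl4* kept its call with GC correction in *Brd9* KD only, and *Loxl1* changed sign, to -0.12 in both. *Pam* was lower in *Baf180* KD in Zn (-0.30, SE 0.07, edgeR adjusted p = 0.0087), *Cp* was higher in *Brd9* KD (0.42, SE 0.08, adjusted p = 0.0079), and *Sod1* passed the test in none of the 3 KDs in Zn. In Zn, 7, 6 and 6 of 9 genes passed, beside 49.9%, 57.5% and 23.2% of all genes.

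Taking the 6 libraries of a line together, without regard to metal, *Lox*, *Loxl3* and *Sod3* had no library below the highest scr library in any KD. The ranges of *Lox* were 137 to 220 CPM in scr, 501 to 614 in *Baf180* KD, 847 to 1395 in *Baf250a* KD and 330 to 404 in *Brd9* KD. Those of *Sod3* were 9.73 to 16.7, 50.1 to 60.6, 78.6 to 99.0 and 38.1 to 53.0 CPM. *Loxl3* was at 30.7 to 44.2 CPM in scr and just above it in *Brd9* KD, at 45.6 to 56.8, against 99.3 to 126 in *Baf180* KD and 148 to 203 in *Baf250a* KD. *Loxl2* lay below scr without overlap in *Baf180* and *Baf250a* KD, *Pam* did so in *Brd9* KD (148 to 182 against 187 to 229 CPM), *Cp* lay above scr in *Brd9* KD (38.3 to 45.4 against 20.3 to 34.2), and *Loxl4* lay above scr in *Baf250a* and *Brd9* KD. In all, 4, 5 and 6 of the 9 genes did not overlap with scr in *Baf180*, *Baf250a* and *Brd9* KD, where 23.4%, 27.4% and 15.7% of all genes did not.

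The second comparison asked whether Cu or Zn changed the genes whose products use copper. Cu changed few of them. In scr cells none of the 9 genes passed the test with Cu, where 0.0333% of all genes did (5 of 15002, and 1559 at an unadjusted p under 0.05). Their log2 fold changes ran from -0.35 (*Loxl1*) to 0.57 (*Cp*). None passed with Cu in *Baf250a* KD (1.27% of all genes, from -0.23 to 0.22) or in *Brd9* KD (0.274%, from -0.44 to 0.26) either, and the first held without the shallow Zn library, which is in the same fit. At an unadjusted p under 0.05 there were 4, 3 and 3 of the 9 genes in scr, *Baf250a* KD and *Brd9* KD (1559, 1530 and 2426 of all genes), and DESeq2 called none of the 9 in these lines. The fit of all 24 libraries called *Cp* in scr (0.56, adjusted p = 0.039), and GC correction called *Loxl1* in *Brd9* KD (-0.37, adjusted p = 0.039).

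In *Baf180* KD cells 3 of 9 genes passed with Cu, beside 13.8% of all genes. *Sod1* rose from 151 and 131 CPM to 210 and 194, without overlap (log2 fold change 0.48, SE 0.09, edgeR adjusted p = 0.012). *Loxl2* fell from 17.6 and 17.6 CPM to 10.6 and 13.4 (-0.58, SE 0.15, adjusted p = 0.030). *Cp* fell from 39.1 and 41.1 CPM to 28.7 and 31.3 (-0.45, SE 0.10, adjusted p = 0.019), and with GC correction its value was -0.18, not past the test, whereas *Sod1* (0.34) and *Loxl2* (-0.64) kept their calls and *Loxl1* gained one (-0.29). Each of the 3 calls was lost when replicate 2 of untreated *Baf180* KD or replicate 1 of *Baf180* KD with Cu was left out.

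Zn changed 4 of 9 genes in scr cells, beside 17.6% of all genes. *Lox* rose from 163 and 137 CPM to 220 and 207 (log2 fold change 0.59, SE 0.12, edgeR adjusted p = 0.028), and *Cp* from 23.8 and 20.3 to 31.4 and 34.1 (0.66, SE 0.13, adjusted p = 0.028). *Sod3* fell from 15.6 and 16.7 CPM to 10.9 and 9.73 (-0.56, SE 0.13, adjusted p = 0.030), and *Loxl3* from 41.7 and 44.2 to 31.2 and 30.7 (-0.39, SE 0.09, adjusted p = 0.035). The groups did not overlap for any of the 4, and DESeq2 called these and *Sod1*. The fit of all 24 libraries called these, *Sod1* (-0.43, adjusted p = 0.0092) and *Loxl4* (-0.44, adjusted p = 0.0070). All 4 calls were lost with the replicate block (adjusted p from 0.054 to 0.067) and without replicate 2 of untreated scr or either scr replicate with Zn. With Zn none of 9 passed in *Baf180* KD (0.0197% of all genes) or *Brd9* KD (0.0334%), with log2 fold changes from -0.44 to 0.34 and from -0.11 to 0.24. At an unadjusted p under 0.05 there were 2 of the 9 genes (1999 of all) in *Baf180* KD and 1 of the 9 (451 of all) in *Brd9* KD with Zn, and DESeq2 called none of the 9. In *Baf250a* KD 2 of 9 passed, beside 15.9% of all genes: *Lox* fell from 1159 and 1197 CPM to 915 and 847 (-0.39, SE 0.11, adjusted p = 0.017), and *Sod1* rose from 119 and 104 to 150 and 159 (0.44, SE 0.11, adjusted p = 0.0058). Without the shallow library these were -0.38 and 0.41 and both passed, as did *Loxl2* (-0.60), *Loxl3* (0.30) and *Cp* (-0.33), which had not with it. DESeq2 on all 6 libraries called *Lox* alone of the 9, and the *Lox* call was lost without either untreated *Baf250a* KD replicate.

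Across genes, which are not independent replicates, metal responses were related to transcript GC content. The rank correlation between response and GC content was -0.71 for Zn in scr cells, -0.55 for Cu in scr and 0.55 for Cu in *Baf180* KD (11906 genes in scr and 12149 in *Baf180* KD). It was weakest, at 0.11, for Zn in *Brd9* KD and for Cu in *Baf250a* KD. Differences of a KD from scr were also related to GC content, from -0.405 (*Brd9* KD, untreated) to 0.433 (*Baf180* KD in Zn). For the differences of responses the correlations ran from 0.469 to 0.665. *Lox* (43.9% GC) and *Cp* (42.5%) rose with Zn in scr cells, and *Sod3* (52.7%) and *Loxl3* (53.4%) fell. Once a spline in GC content and length had been taken out of every library, the 4 Zn responses in scr were 0.25 for *Lox*, 0.19 for *Cp*, -0.35 for *Sod3* and -0.16 for *Loxl3*, and none passed the test (edgeR adjusted p from 0.12 to 0.45). In *Baf250a* KD with Zn, *Lox* (-0.26) and *Sod1* (0.32) did not pass either after the correction, and *Loxl2* did (-0.64). The part of GC content in these responses was not tested beyond this correction, which also removes any change that follows GC content.

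**Figure D3:**
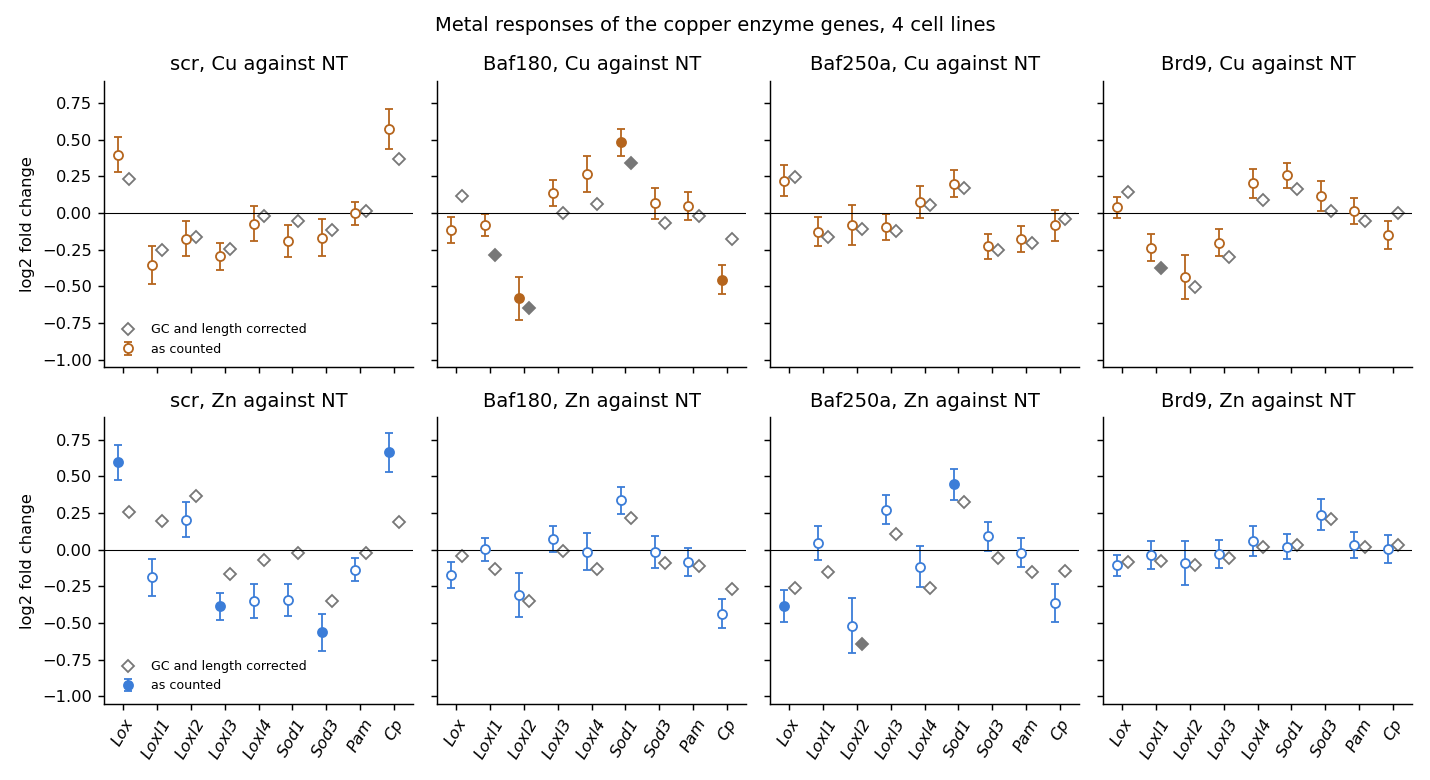
Log2 fold change with Cu (upper row) or Zn (lower row) against NT in each of the 4 lines. Circles are the values from the counts with SE bars, diamonds are the values after correction for GC content and transcript length, and filled symbols have an adjusted p under 0.05. The 4 filled circles for Zn in scr, *Lox*, *Loxl3*, *Sod3* and *Cp*, have open diamonds nearer to 0.

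The third comparison asked whether the response to the metal differed between a KD and scr, as the response of the KD minus that of scr. For Cu, 4 of 9 genes differed in *Baf180* KD (12.8% of all genes): *Sod1* (0.73 on the log2 scale, SE 0.17, edgeR adjusted p = 0.012) and *Loxl3* (0.48) responded more positively than in scr, and *Cp* (-0.97, SE 0.16, adjusted p = 0.0076) and *Lox* (-0.47) more negatively. *Cp* illustrates this: with Cu it went from 39.1 and 41.1 to 28.7 and 31.3 CPM in *Baf180* KD and from 23.8 and 20.3 to 30.2 and 34.2 in scr. None of 9 differed in *Baf250a* KD (0.0121% of all genes) or in *Brd9* KD (0.0363%), where 2 and 4 of the 9 genes, and 1274 and 2759 of all genes, had an unadjusted p under 0.05 and DESeq2 called none of the 9.

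For Zn, 6 of 9 genes differed from scr in *Baf180* KD (28.7% of all genes), 5 of 9 in *Baf250a* KD (30.5%) and 5 of 9 in *Brd9* KD (11.1%). *Lox* and *Cp* were more negative than in scr in each KD, with *Lox* at -0.67, -0.92 and -0.61 and *Cp* at -0.996, -0.96 and -0.56, and *Sod3* (0.66, 0.74 and 0.91) and *Loxl3* (0.56, 0.72 and 0.45) were more positive. The 3 differences share the scr libraries, in which these 4 genes passed the test for Zn. *Sod1* was more positive in *Baf180* KD (0.78) and *Baf250a* KD (0.88), and *Loxl4* in *Baf180* KD (0.44) and *Brd9* KD (0.51). DESeq2 called neither of these *Loxl4* differences. The shallow library is in this fit, and without it *Loxl4* in *Baf180* KD did not pass (adjusted p = 0.051) and the other 15 did. With GC correction, the calls for *Lox* (-0.49) and *Sod1* (0.55) in *Baf250a* KD were the ones that stayed among these 16, and none of the 4 for Cu stayed.

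*Loxl4*, *Sod1* and *Cp* have RefSeq promoter sequences, which bear on these metal responses because the zinc-sensing factor MTF1 acts through metal response elements. The 150 bases before the start site are shown for each, on the strand of the gene (RefSeq, GRCm38.p6). Capitals mark matches to the metal response element (TGCACNC or TGCGCNC) or to the core of the antioxidant response element (TGACNNNGC), on either strand.
Loxl4 (chr19:42612807-42612956, minus strand): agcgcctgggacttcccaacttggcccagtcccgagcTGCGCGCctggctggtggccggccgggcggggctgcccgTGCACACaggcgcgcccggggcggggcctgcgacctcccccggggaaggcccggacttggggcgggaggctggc
Sod1 (chr16:90220612-90220761, plus strand): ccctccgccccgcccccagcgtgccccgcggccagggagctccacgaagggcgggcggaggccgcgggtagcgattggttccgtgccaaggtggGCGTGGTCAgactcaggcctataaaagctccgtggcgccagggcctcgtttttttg
Cp (chr3:19957099-19957248, plus strand): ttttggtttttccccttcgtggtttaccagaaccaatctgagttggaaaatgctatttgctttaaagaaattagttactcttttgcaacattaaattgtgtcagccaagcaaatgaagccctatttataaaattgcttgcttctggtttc
*Loxl4* held both forms of the metal response element, starting 113 and 74 bases before the start site, and *Sod1* held the antioxidant response element core on the other strand, from 56 to 48 bases before it. Neither motif was found in the windows of *Cp*, which has 2 start sites, of which the downstream one is shown. Over all 32851 promoters, taken from 250 bases before to 50 after the start, 25.7% held a metal response element and 12.4% the antioxidant core, so these matches are common. *Loxl4* was at 20.5 and 20.8 CPM in scr without metal, 20.7 and 18.2 with Cu and 16.4 and 14.2 with Zn. In the fits by line it passed the test in no metal response of any of the 4 lines. With Zn in scr it was at -0.35 there (edgeR adjusted p = 0.075). The fit of all 24 libraries did call that fall (-0.44, adjusted p = 0.0070), and the GC correction did not. Of the 10 genes, 4 had a promoter in the table, the other one being *Pam*, with 2 start sites, where the window of one held the antioxidant core on the other strand, from 237 to 229 bases before the start.

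The genes whose products work with these enzymes were described by lists. Of 20 substrates and partners of the lysyl oxidases, 16, 17 and 15 were tested in untreated *Baf180*, *Baf250a* and *Brd9* KD cells, of which 9, 14 and 4 were higher and 2, 2 and 2 lower than in scr. Beside them 41.0%, 57.8% and 29.2% of all genes passed in either direction, and in *Brd9* KD the list's 6 of 15 was near that share. The list's median log2 fold changes were 0.55, 1.57 and 0.030. The read filter was applied to the 4 libraries compared, so some members could be tested only through a KD. *Fmod* was at 0 to 0.191 CPM in scr and 30.5 to 51.9 in *Baf250a* KD, and *Mfap5* at 0.025 to 0.156 and 13.6 to 27.1. Such genes could hardly come out lower, so the counts of higher genes and the medians are no support for a shift of the list. *Col1a1*, the main fibrillar collagen that lysyl oxidases cross-link, was at 31.2 to 44.1 CPM in the 6 scr libraries, 336 to 404 in *Baf180* KD, 1984 to 2584 in *Baf250a* KD and 49.6 to 72.0 in *Brd9* KD, without overlap. Its log2 fold changes without metal were 3.08, 5.67 and 0.58. *Fbln5*, which brings lysyl oxidase-like enzymes to elastic fibers, was higher by 3.26, 4.57 and 1.61, and *Emilin1*, an elastic fiber protein, by 1.93, 2.96 and 1.13. *Postn*, a matricellular protein, was lower in *Baf180* KD (-0.51) and *Brd9* KD (-0.68) and higher in *Baf250a* KD (0.75). Elastin itself (*Eln*) was below 1 CPM in every library of all 4 lines. *Fn1*, the list's most abundant gene, was at 17060 to 23260 CPM in scr and lower without overlap in each KD. It was at 9171 to 10510 CPM in *Baf180*, 8129 to 9339 in *Baf250a* and 12450 to 14280 in *Brd9* KD. The list summed to 20030.5 to 26357.8 CPM in scr and 14838.7 to 15788.3 in *Baf180* KD. In *Baf250a* KD the sum was 19240.1 to 21436.3 CPM and in *Brd9* KD 15675.5 to 17628.8.

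**Figure D4:**
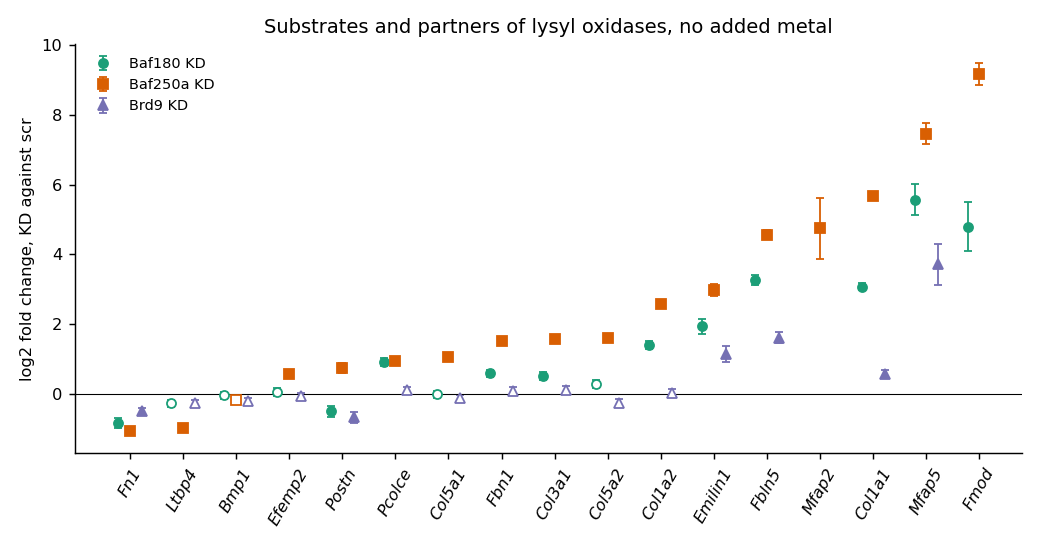
Log2 fold change of the tested substrates and partners of the lysyl oxidases in untreated *Baf180* (circles), *Baf250a* (squares) and *Brd9* (triangles) KD cells against scr, with SE bars, ordered by the value in *Baf250a* KD. Filled symbols have an adjusted p under 0.05, and *Col1a1* stood at 3.08, 5.67 and 0.58 in the 3 KDs.

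Markers of fibroblasts, cells that make much collagen and *Lox*, had the same order over the 4 lines as *Lox* and *Loxl3*. The summed level of 8 such markers was 5.25 to 8.34 CPM in scr libraries, 23.9 to 38.4 in *Baf180* KD, 68.9 to 94.7 in *Baf250a* KD and 10.5 to 14.8 in *Brd9* KD. Of those tested, 2 of 3, 5 of 5 and 1 of 2 were higher in the untreated KDs. Which markers were tested depended on the KD, because the read filter was applied to the 4 libraries compared. *Col15a1*, at 0 to 0.0637 CPM in scr and 1.56 to 5.83 in *Baf250a* KD, could pass it only through that KD. Such a gene could hardly come out lower, so these counts are no support for a shift of the list. Beside these few, 41.0%, 57.8% and 29.2% of all genes passed in either direction. The sums came from *Pdgfra* and *Dcn* for the most part, while *Thy1*, *Lum*, *Tcf21*, *Dpt* and *Pi16* were below 1 CPM in every library of all 4 lines and *Col15a1* was so in all lines but *Baf250a* KD. In RNA from a whole culture, more cells of a type and more RNA per cell cannot be told apart, and the part of such cells in the *Lox* values was not tested. Endothelial markers summed to at most 6.17 CPM and macrophage markers to at most 9.72 CPM in any library, and adipocyte markers, *Pparg* for the most part, to at most 24.7 CPM.

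Of 10 genes that supply copper to the enzymes 9 were tested in each untreated KD, with none, 1 and none higher and 5, 4 and 4 lower in *Baf180*, *Baf250a* and *Brd9* KD (median log2 fold change -0.55, -0.25 and -0.28). These are 5, 5 and 4 of 9 called, beside the same 41.0%, 57.8% and 29.2% of all genes, so the count is not a result about the list. *Cox17*, the chaperone for cytochrome oxidase, was lower in all 3, by -0.86, -1.36 and -0.49, as was *Commd1*, which helps to move Atp7a (-0.70, -0.996 and -0.66). *Ccs*, the chaperone that loads Sod1, was lower in *Baf180* KD (-0.82) and *Brd9* KD (-0.94). In *Baf250a* KD, where *Sod1* was lowest, *Ccs* was at 22.2 and 20.3 CPM against 22.7 and 27.7 in scr and did not pass. *Atp7a*, the pump that serves the secreted enzymes, was higher in *Baf250a* KD (0.52).

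Of 9 other copper enzymes, 5, 5 and 3 were tested, and 3, 3 and 1 were higher in the untreated KDs, with none lower. Of all genes tested, 41.0%, 57.8% and 29.2% passed in these comparisons in either direction. This list and those that follow in this paragraph are too short for their counts to be set apart from that. *Aoc3*, a copper amine oxidase of the cell surface, was at 0.178 to 0.464 CPM in scr and 4.84 to 7.77 in *Baf250a* KD (log2 fold change 4.33), and *Hephl1*, a relative of *Heph*, was 2.32 higher in *Baf180* KD and 2.67 higher in *Baf250a* KD from very low counts. Both were below 1 CPM in every scr library. They passed the read filter, applied to the 4 libraries compared, mainly through the KDs where they were high. Such genes could hardly come out lower, so that none was lower is no support. The mitochondrial *mt-Co1*, a copper-bearing subunit of cytochrome oxidase, was higher by 0.72, 0.61 and 0.66 without metal, where scr was at 3726 and 3510 CPM. This did not hold in Zn, where scr was at 6418 and 6519 CPM and every KD library was lower. The KDs in Zn were at 4165 and 4250 (*Baf180*), 4135 and 4629 (*Baf250a*) and 5885 and 5369 CPM (*Brd9*). Among 5 genes that handle superoxide and peroxide beside the dismutases, none, 1 and none were higher and 3, 1 and 1 lower; *Sod2*, the mitochondrial manganese dismutase, was lower in all 3 KDs (-0.51, -0.67 and -0.52), and *Gpx1*, a glutathione peroxidase, was higher in *Baf250a* KD (0.36). Of 5 iron genes that work with *Cp* and *Heph* 4 were tested, with none, 2 and none higher and none, none and 1 lower. The iron exporter *Slc40a1*, whose action ferroxidases support, was higher in *Baf250a* KD (0.96) and lower in *Brd9* KD (-1.36).

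Across the 12 condition means, *Lox*, *Loxl3* and *Sod3* followed one another, with Pearson correlations of log2 CPM of 0.92 for *Lox* and *Loxl3*, 0.91 for *Lox* and *Sod3* and 0.90 for *Loxl3* and *Sod3*. *Loxl2* ran against them (-0.86 with *Lox*, -0.95 with *Loxl3*), and *Pam* had no such relation to *Lox* (0.011). These 12 means share cell lines and the scr or KD background, so they are a description and not a test. The genes with the closest pattern among 12894 were *Maml2* (0.99) and *Bdnf* (0.99) for *Lox*, *Ephb6* (0.99) and *Itgb5* (0.99) for *Loxl3*, *Ece1* (0.99) and *Zbtb7c* (0.99) for *Sod3* and *Colec10* (0.99) and *Pappa* (0.98) for *Loxl2*. For *Sod1* they were *Rpl6* (0.98) and *Eif4ebp2* (0.97), for *Pam* *P4ha2* (0.96) and *Slc39a3* (0.95), for *Cp* *Trim24* (0.94) and *Tspan12* (0.93), for *Loxl4* *Ipo4* (0.95) and *Dipk1b* (0.92), and for *Loxl1* *Rab40b* (0.91) and *Pkig* (0.91).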

How the data were processed

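The authors removed ribosomal RNA with RNase H, made strand-specific libraries, aligned reads to mm10 with STAR (uniquely mapped reads only) and assigned fragments to genes with featureCounts in its reverse-strand mode. The analysis started from these deposited raw counts, which are whole numbers without normalization. The authors' own comparisons from DESeq2, in 14 further tables of log2 fold changes, p-values and adjusted p-values, were not used. Groups follow the sample titles, with which another label field disagrees. Tool versions are not given in the sources used here.

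Counts were compared in R 4.3.3 with edgeR 4.0.16 (TMM, filterByExpr at its defaults, glmQLFit and glmQLFTest), with a Benjamini-Hochberg adjusted p under 0.05 over all genes tested and no minimum fold change. Each line's 6 libraries gave its metal responses, the 4 libraries of a KD and scr at one treatment gave their comparison, and differences of responses on all 24. CPM are TMM-scaled over all 24 libraries, and FPKM are CPM divided by the length of the APPRIS principal transcript of GENCODE M21 (else a basic one). GC content and length, known for 53292 of 55291 symbols, came from the same transcripts. Alternatives were RLE size factors, all genes with at least 1 count, DESeq2 1.42.0, the replicate number as a block, GC and length correction with and without that block, all 24 libraries in one fit, and leaving out each library. The scripts were tested on simulated data.

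Named genes are the 10 enzymes, the targeted genes and metallothioneins, up to 4 genes of each list (those called in most comparisons, ties by mean CPM) and the 2 genes with the closest pattern to each enzyme. *Eln*, *Fn1*, *Pparg* and the fibroblast markers were named after their values were seen. The enzymes and lists were chosen with earlier results of these data known. Total counts set the precision of each value.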

Additional observations from a re-analysis of the deposited data

Results flagged for a closer look

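A KD and scr control responded differently to a metal in 20 of the tests of a difference (edgeR, interaction of line and metal over all 24 libraries, adjusted p under 0.05; values are the response of the KD minus that of scr on the log2 scale). For Cu these were in *Baf180* KD: *Lox* (-0.47), *Loxl3* (0.48), *Sod1* (0.73) and *Cp* (-0.97). For Zn in *Baf180* KD they were *Lox* (-0.67), *Loxl3* (0.56), *Loxl4* (0.44), *Sod1* (0.78), *Sod3* (0.66) and *Cp* (-0.996). For Zn in *Baf250a* KD they were *Lox* (-0.92), *Loxl3* (0.72), *Sod1* (0.88), *Sod3* (0.74) and *Cp* (-0.96), and without the shallow library -0.88, 0.78, 0.85, 0.75 and -0.90, all past the test. For Zn in *Brd9* KD they were *Lox* (-0.61), *Loxl3* (0.45), *Loxl4* (0.51), *Sod3* (0.91) and *Cp* (-0.56). Without the shallow library *Loxl4* in *Baf180* KD with Zn did not pass (adjusted p = 0.051). All 20 use the untreated scr libraries.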

How the results depend on the processing

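The 52 differences of a KD from scr were firmer than the metal responses: 14 of 18 without metal, 10 of 15 in Cu and 14 of 19 in Zn kept direction and call in every alternative, among them all 9 each of *Lox* and *Sod3*. None of the 3 Cu responses or the 6 Zn responses did, and of the differences of responses none of 4 for Cu and 2 of 16 for Zn did (*Lox* and *Sod1* in *Baf250a* KD). Counts of enzymes called moved by over 1.5 times in these cases, whose cause was not tested. With all genes of at least 1 count, 6 Cu responses and 10 Zn responses were called, against 3 and 6. With GC and length correction 1 Zn response was called, and the differences of responses fell to 0 for Cu and 3 for Zn, against 4 and 16; with the replicate block added to it these were 1, 2 and 4. *Loxl1* in Zn against scr changed sign, to -0.124 with the correction and -0.124 with the block added in *Baf180* KD (adjusted p = 0.099 and 0.031, the second a call in the other direction), and to -0.120 and -0.104 in *Baf250a* KD. Leaving out 1 library gave 0 to 3 Cu responses (0 without replicate 2 of untreated *Baf180* KD or replicate 1 of *Baf180* KD with Cu), 2 to 9 Zn responses (2 without replicate 2 of untreated scr or either replicate of scr with Zn), 0 to 5 differences of Cu responses (0 without replicate 2 of untreated scr or replicate 1 of *Baf180* KD with Cu) and 9 to 16 of Zn responses (9 without replicate 2 of untreated scr or of scr with Zn). In such fits a lone library is assumed to vary like the others. Over all genes, DESeq2 called 339 in *Baf250a* KD with Zn and 3018 in *Baf250a* KD against scr in Zn, the comparisons with the shallow library, where edgeR called 2334 and 8304. The tools also differed in Cu in scr (80 against 5 by edgeR), *Baf250a* KD (33 against 187) and *Brd9* KD (205 against 41), in Zn in *Baf180* KD (93 against 3) and *Brd9* KD (12 against 5), and in the difference of Cu responses in *Baf250a* KD (16 against 2) and *Brd9* KD (28 against 6). With the replicate block 8 of 81 calls were lost and none reversed, among them the 4 Zn responses in scr; same-numbered libraries did not deviate together throughout (r from -0.53 to 0.57 over pairs of conditions), so the numbers were not used as pairs. Depth limited *Heph* in all libraries, and *Loxl2*, *Loxl4* and *Cp* in the shallow library (10, 11 and 13 counts).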
